A study of Mus musculus with 26 samples.

Results

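The regions described here are the 12025 regions of the WT clones at which both orders of sequential ChIP gave a listed region. They were chosen as the regions of the K4-K27 set (H3K4me3 ChIP followed by H3K27me3 reChIP, 26544 regions) that share at least 1 bp with a region of the K27-K4 set (the reverse order, 31231 regions). At each of them the in-line total H3K4me3 was compared with the in-line total H3K27me3 of the same clones, as the log2 difference of the marks, called the balance below. The totals were not used to choose the regions. The question was whether regions that carry both marks in sequential ChIP hold similar total levels of both, and which genes lie at either end or at balance.

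H3K4me3 is laid down by SET1 and MLL complexes and is found at the start sites of active and poised genes, mostly in CpG islands. H3K27me3 is laid down by Polycomb repressive complex 2 and marks silent developmental genes in embryonic stem cells. Bivalent chromatin carries both marks, and sequential ChIP reads their presence on the same mononucleosome, whereas a total ChIP reads each mark on its own.

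The cells were E14 mouse embryonic stem cells, an established line grown in serum and LIF on gelatin without feeders. WT clones 57 and 58 (genotype WT) and DKO clones 43 and 53 (DPPA2 and DPPA4 double knockout) were each derived as 1 clone, and all clone libraries were of sequencing batch C. Parental E14 cells, which are not clonal, were profiled as replicate 1 (batch A) and replicate 2 (batch B). Chromatin was cut to mononucleosomes with MNase, and an in-line total is material set aside after the first ChIP, so it shares that first immunoprecipitation with the reChIP that followed. The Millipore H3K4me3 antibody is described by the study as also binding H3K4me2 at lower efficiency. IgG–IgG reChIP was available from WT clone 57 as 1 library. The 4 total libraries of the WT clones (2 clones for each mark) form the main comparison, and p-values therefore measure the spread between clones only.

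Levels are given as deposited, as log2 RPM (reads scaled to library size) per kb of region. Equal levels mean equal reads after scaling to library size, not equal numbers of modified nucleosomes, since the antibodies differ. In bulk chromatin, a mark on fewer cells or alleles and a lower density of the mark cannot be told apart. The values of the 4 libraries rest on 15601155 to 18918372 reads. The share of reads inside the 12025 regions was 16.8% for total H3K4me3 of clone 57, 7.07% for total H3K4me3 of clone 58, 6.65% and 4.33% for total H3K27me3 of clones 57 and 58, and 2.54% for IgG–IgG. A region held a median of 209 and 82 reads of total H3K4me3 and 53 and 32 reads of total H3K27me3 in clones 57 and 58. Total H3K4me3 was thus higher in clone 57 than in clone 58, by a median of 1.18 log2 units over the regions, against 0.54 for total H3K27me3.

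The labelled cell type was checked by these marks alone, and RNA was not analysed here. All 10 pluripotency genes listed, among them Pou5f1, Sox2, Nanog and Zfp42, overlapped a region of total H3K4me3 in the WT clones, and 1 of them, Esrrb, also overlapped a region of total H3K27me3. Of 17 lineage genes with a start site, 14 overlapped a region of total H3K4me3 and 12 a region of total H3K27me3. Of the 17, 16 had a region of both reChIP orientations at the promoter, among them Gata6, Sox17 and Pax6, against 3 of the 10 pluripotency genes (Esrrb, Klf4 and Fgf4).

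To show the sequences behind the classes described below, promoters are printed for genes of each class, taken in the order of the naming rule where the window lay inside the region. CG reads the same on both strands. A CG was found in 94.6% of the 32851 promoters of the table, with a median of 7 per promoter.
At the H3K4me3 end, Spr at chr6:85137715-85138014, minus strand, with 16 CG, and Gon7 at chr12:102757761-102758060, minus strand, with 31 CG:
Spr: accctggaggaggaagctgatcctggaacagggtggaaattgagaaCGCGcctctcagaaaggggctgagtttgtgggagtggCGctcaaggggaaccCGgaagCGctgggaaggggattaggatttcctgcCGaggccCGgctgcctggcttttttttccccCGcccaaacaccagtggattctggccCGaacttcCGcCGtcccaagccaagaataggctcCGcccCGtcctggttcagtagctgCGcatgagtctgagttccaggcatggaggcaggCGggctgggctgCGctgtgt
Gon7: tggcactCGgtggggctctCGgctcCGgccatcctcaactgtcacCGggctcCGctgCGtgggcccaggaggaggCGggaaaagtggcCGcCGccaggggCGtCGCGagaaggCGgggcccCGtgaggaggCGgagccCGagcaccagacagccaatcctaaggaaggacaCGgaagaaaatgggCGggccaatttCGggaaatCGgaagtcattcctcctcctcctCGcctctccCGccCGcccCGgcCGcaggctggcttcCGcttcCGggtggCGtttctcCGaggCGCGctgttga
At the H3K27me3 end, Prdm8 at chr5:98180619-98180918, plus strand, with 12 CG:
Prdm8: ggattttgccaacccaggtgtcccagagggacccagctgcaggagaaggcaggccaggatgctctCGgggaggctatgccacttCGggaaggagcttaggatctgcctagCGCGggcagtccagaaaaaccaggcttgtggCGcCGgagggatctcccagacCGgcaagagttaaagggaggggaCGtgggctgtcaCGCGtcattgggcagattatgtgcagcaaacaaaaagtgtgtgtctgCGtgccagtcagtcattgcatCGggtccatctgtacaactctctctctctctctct
At balance, Gjb6 at chr14:57133562-57133861, minus strand, with 6 CG, and Gpr37 at chr6:25689931-25690230, minus strand, with 21 CG:
Gjb6: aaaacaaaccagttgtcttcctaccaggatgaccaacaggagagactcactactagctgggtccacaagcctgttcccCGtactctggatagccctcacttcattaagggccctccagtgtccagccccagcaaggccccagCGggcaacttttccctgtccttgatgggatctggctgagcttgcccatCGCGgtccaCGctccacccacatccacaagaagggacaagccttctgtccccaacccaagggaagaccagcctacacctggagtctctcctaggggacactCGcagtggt
Gpr37: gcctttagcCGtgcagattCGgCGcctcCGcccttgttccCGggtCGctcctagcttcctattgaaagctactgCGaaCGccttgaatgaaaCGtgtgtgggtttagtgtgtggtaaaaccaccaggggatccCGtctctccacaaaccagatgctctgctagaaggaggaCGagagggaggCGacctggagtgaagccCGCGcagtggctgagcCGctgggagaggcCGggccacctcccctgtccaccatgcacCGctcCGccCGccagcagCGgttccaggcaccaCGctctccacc
For the gene with the highest balance among the Wnt, BMP, FGF and Hedgehog ligands, Fgf4 at chr7:144861136-144861435, plus strand, with 28 CG:
Fgf4: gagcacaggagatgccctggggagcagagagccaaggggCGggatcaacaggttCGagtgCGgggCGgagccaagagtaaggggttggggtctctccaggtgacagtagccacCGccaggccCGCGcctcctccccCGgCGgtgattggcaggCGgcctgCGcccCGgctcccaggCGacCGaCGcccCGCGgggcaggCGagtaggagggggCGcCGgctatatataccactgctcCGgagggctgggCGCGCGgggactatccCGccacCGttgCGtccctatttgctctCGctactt
The printed promoters span the range from 6 CG, where 43.6% of all promoters hold fewer, to 31 CG, where 89.4% hold fewer. A start window was matched for 77.3% of the protein-coding genes with a member region, too few for a comparison of windows between classes. CpG content is therefore compared below over the regions themselves.

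As deposited, most regions held more total H3K4me3 than total H3K27me3, and the median changed sign under other scalings. The median balance was 1.16 in clone 57 and 0.60 in clone 58, and the quartiles were 0.02 and 2.77 in clone 57 and -0.30 and 1.88 in clone 58. In clone 57, 24.5% of the regions lay below 0, and in clone 58, 33.5%. The clones put the regions in a like order, with Pearson's r of 0.93 and Spearman's rho of 0.95 across the 12025 regions, which are not independent replicates and share library scaling. The sign of the balance was the same in both clones at 10477 regions (87.1%). In both clones, 4756 regions lay above 1 and 978 below -1.

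With limma over all 12025 regions, total H3K4me3 was higher at 3479 regions (28.9%) and total H3K27me3 was higher at 428 (3.56%), where a call needed a log2 difference above 1 and an adjusted p (Benjamini-Hochberg) below 0.05. The balance closest to 0 among the called regions was 1.99 on the H3K4me3 side and -2.0 on the H3K27me3 side. All 3479 regions of the H3K4me3 end, and 426 of the 428 of the H3K27me3 end, had no overlap between the 2 libraries of one mark and the 2 of the other. With 2 libraries per mark and balances this far from 0, the call nearly fixes that separation, so it adds no support. The share without overlap over all 12025 regions was not counted. The 8118 regions that were not called had a median balance of 0.36, and a missed threshold does not show that their marks are equal.

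The position of 0 was set by the scaling of the libraries. With the clone as a block, the calls were 5298 (44.1%) and 934 (7.77%). With each library centred on its own median over the regions, every balance moved by -1.06, to a median of -0.19, and the calls became 3342 (27.8%) with total H3K4me3 higher and 3367 (28.0%) with total H3K27me3 higher. The share of calls on the H3K4me3 side was 89.0% as deposited, 49.8% after centring, 47.4% after quantile normalisation and 26.9% after scaling on the lowest 25% of regions by enrichment. Of the 3479 regions called with total H3K4me3 higher as deposited, 3336 were also called so both with the block and after centring. Calls also moved with single libraries. Without total H3K27me3 of clone 57 they were 133 and 5, without total H3K27me3 of clone 58 they were 358 and 19, without total H3K4me3 of clone 57 they were 2930 and 648, and without total H3K4me3 of clone 58 they were 5450 and 755. In these fits the lone library of a mark is taken to vary like the pair of the other mark.

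**Figure D1:**
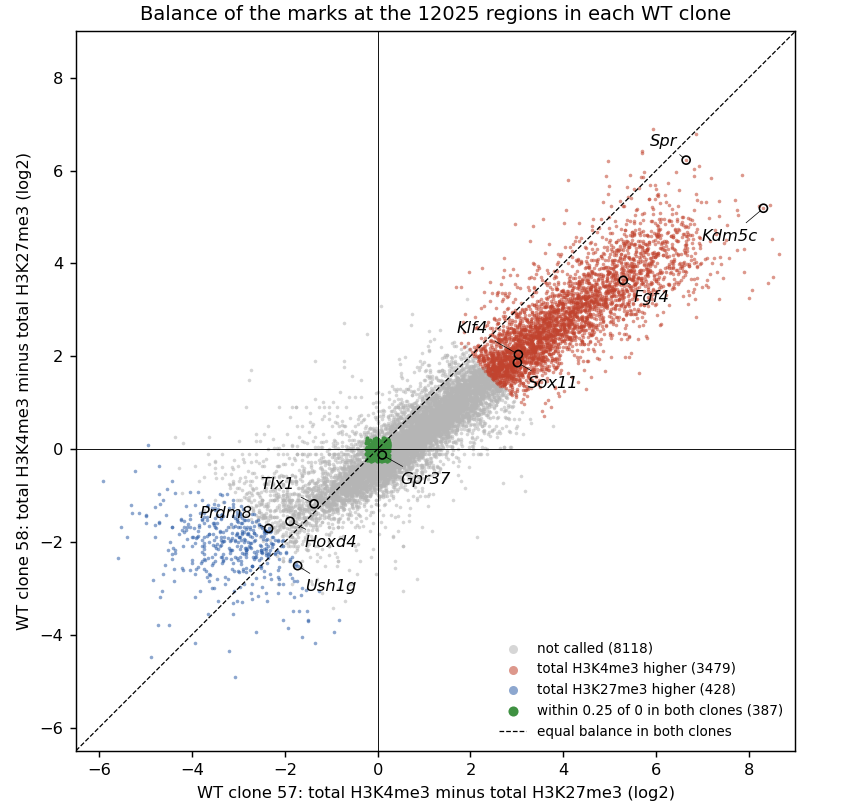
Each point is 1 of the 12025 regions, with the log2 difference of total H3K4me3 and total H3K27me3 in WT clone 57 (horizontal) and WT clone 58 (vertical). Red points are the 3479 regions called with total H3K4me3 higher, blue points the 428 called with total H3K27me3 higher, green points the 387 within 0.25 of 0 in both clones, and most red points lie below the dashed line of equal balance.

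As deposited, the H3K4me3 end consisted mostly of promoters in CpG-rich sequence, and the H3K27me3 end mostly of narrow regions in introns and between genes. After centring, the 3367 regions called with total H3K27me3 higher were 1480 at promoters, 531 in exons, 463 in introns and 893 between genes, and 1055 of them were under 1 kb wide. Of the 3479 regions with total H3K4me3 higher, 86.2% lay within 1.5 kb of a RefSeq start site, 3.48% in other exons, 2.10% in introns and 8.25% between genes. Of the 428 with total H3K27me3 higher, 17.3% lay at a promoter, 11.2% in exons, 33.9% in introns and 37.6% between genes. Over all 12025 regions the promoter share was 62.9%. The median CpG content was 4.83 per 100 bp at the H3K4me3 end, 1.00 at the H3K27me3 end and 3.85 over all regions. The median width was 1950 bp, 750 bp and 1800 bp in the same order, and 65.2% of the H3K27me3 end was under 1 kb wide against 19.4% of all regions.

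Among promoter regions alone, 2998 of 7563 (39.6%) were called with total H3K4me3 higher and 74 (0.978%) with total H3K27me3 higher, with a median balance of 1.41. After centring these were 2935 and 1480. Intronic regions had a median balance of -0.35, regions between genes 0.26 and other exonic regions 0.33. The widest regions, of 4 kb and more, had a median of 0.01 (977 regions), regions of 1 to 2 kb 1.36 (4605 regions) and regions under 1 kb -0.07 (2331 regions). Across all regions the balance and CpG content gave Spearman's rho of 0.52, and the balance and width 0.13.

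The H3K27me3 end was called on few reads of total H3K4me3. Its regions held a median of 6 and 8 reads of total H3K4me3 and 51.5 and 29 reads of total H3K27me3 in clones 57 and 58, and 65 of the 428 had under 5 reads of total H3K4me3 in both clones. The H3K4me3 end held a median of 405 and 136 reads of total H3K4me3 and 22 and 17 of total H3K27me3. Regions at the H3K27me3 end numbered 45 when the lowest 25% of mean levels was left out, 119 among regions at least 1 kb wide, 56 with an overlap of at least 50% of both widths and 229 with a mean of 20 reads.

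Each end was read against the 1 IgG–IgG library. At the H3K4me3 end, the median level of total H3K4me3 was 3.45 in clone 57 and 2.08 in clone 58, that of total H3K27me3 was -0.56 and -0.77, and that of IgG–IgG was -0.20. Total H3K27me3 exceeded IgG–IgG at 34.5% of these regions, against 78.2% of all regions. At the H3K27me3 end, the median level of total H3K4me3 was -1.19 and -0.74, that of total H3K27me3 was 1.85 and 1.26, and that of IgG–IgG was -1.75. Total H3K4me3 exceeded IgG–IgG at 63.1% of these regions, against 97.1% of all regions. A mark in deficit at either end was thus near or below the IgG–IgG level at many regions.

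The reChIP levels moved with the balance, each orientation with its own course. Total H3K4me3 shares its first ChIP with K4-K27, and total H3K27me3 with K27-K4, and both reChIP lists were used to choose the regions. The courses are therefore not independent of the balance and are given as a description. With the regions ordered by balance and cut into 10 groups of equal size, the median K27-K4 level of clone 57 was 1.77 in the lowest group, 3.32 in the third and 0.91 in the highest, and that of clone 58 was 1.45, 2.61 and 0.70. The median K4-K27 level of clone 57 was 0.99 in the lowest group and 3.51 in the highest, and that of clone 58 was 1.73 and 2.75. Both K27-K4 libraries were therefore highest in the third group, where the balance ran from -0.38 to 0.07, and both K4-K27 libraries highest at the H3K4me3 end. Over the same 10 groups the promoter share went from 22.4% to 96.8%.

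**Figure D2:**
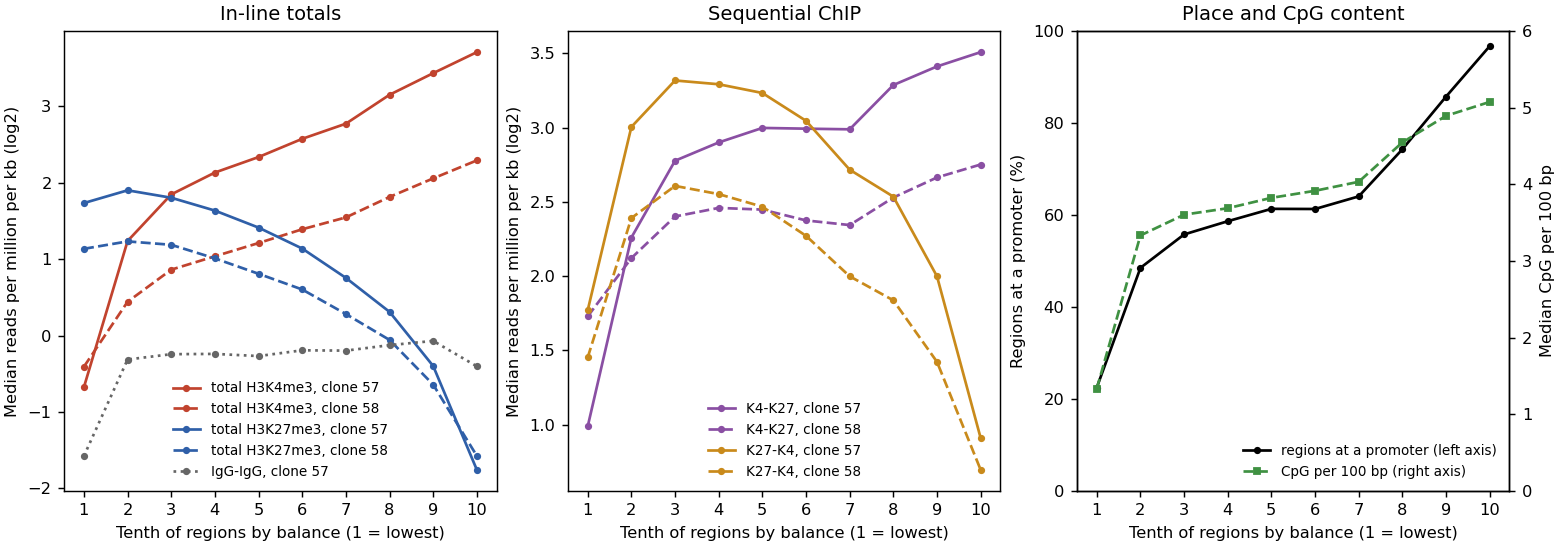
Medians over 10 groups of the regions ordered by balance, with 1202 or 1203 regions in each, for the in-line totals and IgG–IgG (left), both reChIP orientations (middle) and the share of regions at a promoter with CpG content (right). Solid lines are clone 57 and dashed lines clone 58 in the left and middle panels, K27-K4 peaks in the third group in both clones, and K4-K27 is highest in the last.

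Genes were named at the H3K4me3 end as the 10 promoter regions of at least 1 kb with the largest lower balance of the 2 clones, out of 2780 candidates. Protein handling was represented by Ssr3 (a subunit of the translocon-associated protein complex), Srp54a (a subunit of the signal recognition particle) and Dnajc19 (a co-chaperone of mitochondrial import). Metabolism was represented by Spr (sepiapterin reductase) and Mthfd1l (mitochondrial folate metabolism). Bms1 (a ribosome biogenesis GTPase) and Ddx50 (a nucleolar RNA helicase) act in the nucleolus. Hat1 acetylates newly made histone H4. The region of Gon7 (a KEOPS complex subunit) is shared with Ubr7, and Ankrd54 completes the set.

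At Spr (chr6:85137001-85138200), total H3K4me3 was 4.50 and 3.00 in clones 57 and 58 and total H3K27me3 was -2.15 and -3.23, with 514 and 160 reads against 5 and 2. The balance was 6.43 ± 0.84 (SE, n = 2 clones per mark, limma adjusted p = 1.23e-10), and both libraries of total H3K4me3 stood far above both of total H3K27me3. At Hat1 (chr2:71388901-71390400), total H3K4me3 was 4.22 and 3.00 and total H3K27me3 -2.20 and -2.96, with an IgG–IgG level of 0.16. Its balance was 6.19 ± 0.84 (adjusted p = 3.45e-10). The region of Gon7 and Ubr7 (chr12:102756151-102759450) had 867 and 292 reads of total H3K4me3 and 7 and 4 of total H3K27me3, a balance of 6.50 ± 0.92.
These folds rest on few reads of total H3K27me3. Pooling the reads of both clones, the ratio was 92.0 at Spr with an exact 95% interval of 44.4 to 230, and 113.9 at Ssr3, which held 3 and 1 reads of total H3K27me3, with an interval of 44.2 to 420. The intervals cover counting error only. Srp54a held 1 and 1 reads of total H3K27me3 and an IgG–IgG level of -2.90, and its level is uncertain, since close copies of the gene exist and how reads were shared among them was not tested. Its call was lost without total H3K4me3 of clone 57 (6.02), and those of Bms1 and Dnajc19 without total H3K27me3 of clone 58 (5.13 and 5.06). The 10 regions had K27-K4 levels between -0.71 and 1.29 in clone 57 and between -0.64 and 1.45 in clone 58.

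A gene was represented by the region with the largest overlap of its promoter window, and under the same rule the H3K27me3 end then offered 3 candidates. Further called promoter regions of at least 1 kb belonged to no protein-coding gene or to genes represented by another region, such as those at Ntsr2 (a neurotensin receptor, balance -2.79) and Tbc1d30 (-2.51), which were named after their values were seen. Prdm8 encodes a PR domain transcriptional regulator of neurons and retina, Ush1g a scaffold protein of hair cell stereocilia, and Pcdhb19 a clustered protocadherin of neuronal surfaces. At Prdm8 (chr5:98179201-98183250), total H3K4me3 was -0.43 and -0.44 in clones 57 and 58 and total H3K27me3 was 1.92 and 1.28, on 57 and 50 reads against 283 and 153. The balance was -2.03 ± 0.84 (limma adjusted p = 0.0486), and the marks did not overlap. At Ush1g (chr11:115321201-115322400), total H3K4me3 was 0.85 and -0.74 and total H3K27me3 was 2.58 and 1.77, a balance of -2.12 ± 0.82 (adjusted p = 0.0338). At Pcdhb19 (chr18:37497001-37498050), the levels were -0.99 and -0.67 against 1.85 and 1.58, a balance of -2.55 ± 0.85 (adjusted p = 0.0109). With the clone as a block the adjusted p was 0.00574 at Prdm8, 0.000289 at Ush1g and 0.000787 at Pcdhb19. None of the 3 passed without total H3K27me3 of clone 57, at balances of -1.71, -1.72 and -2.41 in the same order, or without that of clone 58, at -2.35, -2.52 and -2.69. Without total H3K4me3 of clone 58, Ush1g did not pass either, at -1.32.

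As deposited, most of the H3K27me3 end lay away from promoters, while promoters were the largest class after centring (1480 of 3367). Of the 428 regions, 193 lay in introns or in exons outside promoters and 161 between genes. Counted by the gene they overlap, Kcnq1 (a potassium channel gene of an imprinted domain) and Prickle1 (planar cell polarity) had 6 regions each, and Pax3 and Zic4 (transcription factors of the neural tube and neural crest) and Ptprn2 (a protein of dense-core vesicles) had 4 each. These genes were picked after the counts were seen, with no allowance for gene length. In Kcnq1 the region at chr7:143185501-143188950 held 30 and 33 reads of total H3K4me3 against 298 and 168 of total H3K27me3, a balance of -2.90. In Prickle1 the region at chr15:93523051-93524700 held 9 and 11 reads against 125 and 86, a balance of -3.45.

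At balance, meaning within 0.25 of 0 in each clone, were 387 regions (3.22% of all). Their median level in clone 57 was 1.82 for total H3K4me3 and 1.79 for total H3K27me3, and in clone 58 it was 0.96 and 1.0, against -0.16 for IgG–IgG. Of these regions, 56.1% lay at a promoter, the median width was 2100 bp and the median CpG content 3.60 per 100 bp. The K27-K4 medians of 3.27 and 2.6 in clones 57 and 58 stood above the medians of all regions, 2.48 and 1.88. The K4-K27 medians of 2.75 and 2.42 stood close to those of all regions, 2.93 and 2.38. A region of total H3K4me3 and one of total H3K27me3 both overlapped 66.1% of the regions at balance, 9.20% of the H3K4me3 end, 0.935% of the H3K27me3 end and 36.2% of all regions. Those lists describe the same clones and marks, so they are not independent of the balance.

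The 10 promoter regions at balance with the highest lower mark over IgG–IgG, out of 177 candidates, were ranked by that enrichment, and 9 of them are described here. Receptors and channels were Sstr3 (somatostatin receptor), Gpr37 (an orphan receptor of the nervous system), Htr2c (serotonin receptor) and Gjb6 (a connexin). The others were Fgf10 (a growth factor of lung and limb buds), Stat5a (cytokine signalling), Plpp4 (a lipid phosphatase), Zfp641 (a zinc finger protein) and Oaf. At Gpr37 (chr6:25687951-25690950), total H3K4me3 was 2.03 and 0.89 in clones 57 and 58 and total H3K27me3 was 1.93 and 1.02, on 231 and 93 reads against 210 and 95. Its balance was -0.01 ± 0.83. At Fgf10 (chr13:118713601-118716000), the levels were 1.68 and 0.88 against 1.71 and 0.66, a balance of 0.10 ± 0.82. At Stat5a (chr11:100859101-100861800), they were 2.07 and 1.12 against 1.82 and 1.17, a balance of 0.10 ± 0.84. Both marks were lower in clone 58 at these loci, and the marks overlapped. IgG–IgG reads were absent at Gjb6, Sstr3 and Htr2c, each at a level of -4.63. After centring, 7 of the 10 were called with total H3K27me3 higher.

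**Figure D3:**
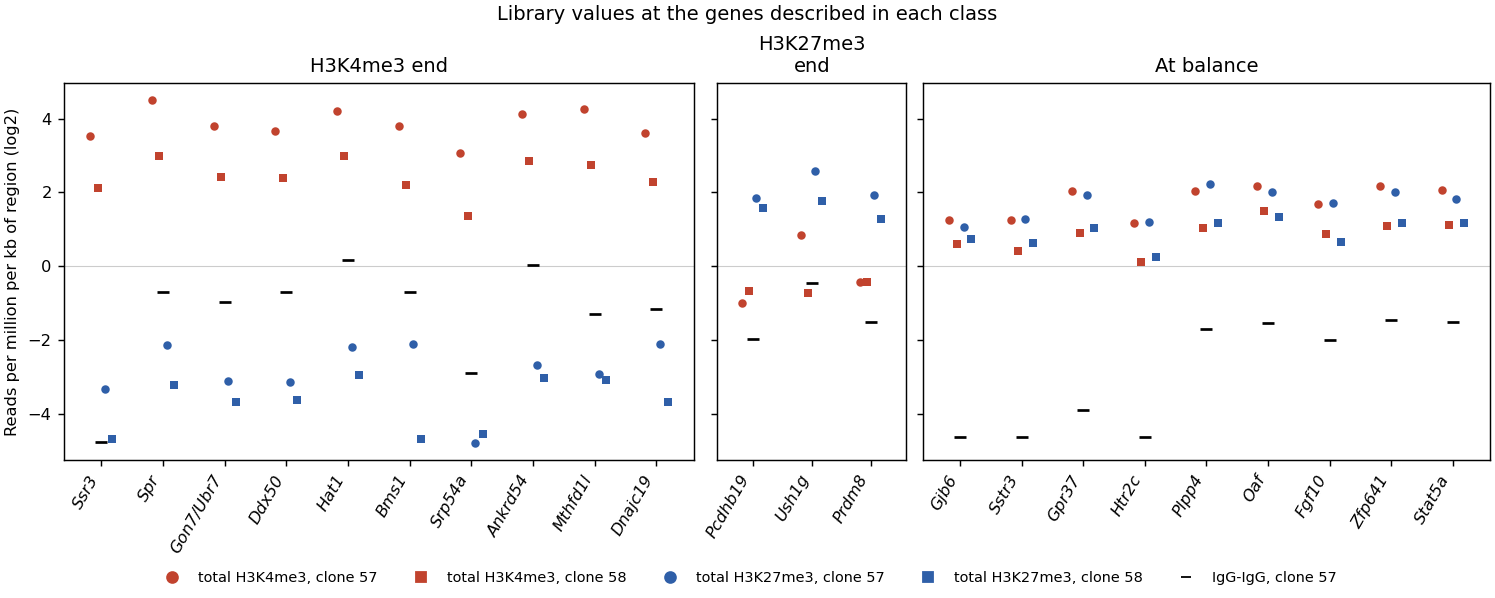
Log2 RPM per kb at the genes described in each class, with red for total H3K4me3, blue for total H3K27me3, circles for clone 57, squares for clone 58 and black dashes for IgG–IgG of clone 57. At the H3K4me3 end the red points lie between 1.35 and 4.50 and the blue points between -4.79 and -2.12, and at balance the colours overlap.

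Gene lists were compared at promoters, where each gene takes the region with the largest overlap of its window. Among 7140 protein-coding genes with such a region the median balance was 1.64, and 3119 (43.7%) were called with total H3K4me3 higher and 6 (0.084%) with total H3K27me3 higher. With the clone as a block these shares were 60.5% and 1.44%, and after centring 42.9% and 16.4%. The shares are the background for every list below. They count only the region that represents each gene. Counted by any called region at a promoter window as deposited, 3161 protein-coding genes had one with total H3K4me3 higher. By the same count, 62 had one with total H3K27me3 higher.

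Hox, other homeobox and forkhead, Sox, Gata and T-box factors had the lowest list medians. Their regions were wide, with median widths of 5250, 5550 and 4800 bp in that order, against 1800 bp over all regions. Regions of 4 kb and wider had a median balance of 0.01 whatever the gene. Whether the low medians go beyond region width was not tested. Of 39 Hox genes, which specify position along the body axis, 37 had a member region, with a median of -1.07 (-1.12 in clone 57 and -1.05 in clone 58), and 33 of the 37 lay below 0. At these regions none passed the test in either direction as deposited. With the block, 18 passed with total H3K27me3 higher and 1 with total H3K4me3 higher, and after centring 34 passed with total H3K27me3 higher. At Hoxd4 (chr2:74721901-74724450), the lowest of the list, total H3K4me3 was -0.01 and -0.24 and total H3K27me3 was 1.88 and 1.32, a balance of -1.72 ± 0.83 (limma adjusted p = 0.101, and 0.0143 with the block). The medians of the clusters were -1.16 for Hoxa, -1.01 for Hoxb, -1.11 for Hoxc and -0.62 for Hoxd, and neighbouring genes of a cluster shared regions, so that the 37 genes rest on 33 regions. An antisense transcript of this cluster family, Hoxb5os, has its own region (chr11:96307051-96309450), which was called with total H3K27me3 higher at a balance of -2.49. A second, smaller region at the promoter window of Hoxa7 (chr6:52219651-52221000) was also called, at -2.42, while the region that represents Hoxa7 had -1.42. Intronic regions were called within Hoxb3, Hoxa3 and Hoxd3, between -3.16 and -2.03. These regions were named after their values were seen.

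Other homeobox and paired factors followed, with a median of -0.54 over 85 genes, of which 64 lay below 0, 0 passed as deposited and 64 passed with total H3K27me3 higher after centring. With the block, 13 passed with total H3K27me3 higher and 4 with total H3K4me3 higher. Barx1 (chr13:48656851-48667200), a factor of the stomach and face, was lowest, with total H3K4me3 at 0.84 and 0.11 and total H3K27me3 at 2.6 and 1.68, a balance of -1.66 ± 0.82 (adjusted p = 0.111, and 0.00173 with the block). Otx2 (chr14:48664501-48667200), a factor of the forebrain and of primed pluripotency, was highest, with 2.09 and 0.36 against -0.18 and -1.0, a balance of 1.82 ± 0.86 (adjusted p = 0.0904, and 0.025 with the block).
Forkhead, Sox, Gata and T-box factors had a median of -0.33 over 48 genes, of which 4 passed with total H3K4me3 higher and 2 with total H3K27me3 higher with the block, and 1 and 33 after centring. At Tbx1 (chr16:18580201-18593550) the balance was -1.40 in clone 57 and -1.39 in clone 58. Sox11, a neural factor, was the 1 gene of the list that passed as deposited, with a balance of 2.44 ± 0.84 (adjusted p = 0.0151) from 3.54 and 2.12 of total H3K4me3 and 0.53 and 0.26 of total H3K27me3. The bHLH list, drawn up for neural and muscle factors but not limited to them, had a median of -0.11 over 34 genes. Of these, 6 and 3 passed in the same order with the block, and 1 and 20 after centring. Lyl1 was lowest at -1.23. Tcf15, a factor of the paraxial mesoderm, was the 1 that passed as deposited, at 3.36 ± 0.83 (adjusted p = 0.000354). Neither Sox11 nor Tcf15 passed without total H3K27me3 of clone 57 (2.57 and 3.27) or of clone 58 (2.3 and 3.44), and Sox11 did not without total H3K4me3 of clone 57 either (1.72).

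Signalling and nervous system genes had list medians from -0.08 to 0.81 as deposited, and from -1.14 to -0.25 after centring. Wnt, BMP, FGF and Hedgehog ligands had a median of -0.08 over 49 genes, of which 22 lay above and 27 below 0. Wnt1 (chr15:98788801-98795100) was lowest, with total H3K4me3 at 1.04 and 0.73 and total H3K27me3 at 2.73 and 1.88, a balance of -1.42 ± 0.84 (adjusted p = 0.198, and 0.00302 with the block). Fgf4 (chr7:144859501-144864450), whose promoter is printed above, was highest, with 3.69 and 2.36 against -1.60 and -1.27, a balance of 4.46 ± 0.83 (adjusted p = 1.5e-06). Fgf4 is a ligand that embryonic stem cells themselves use, and Fgf17, at 2.26, was the other ligand that passed. Potassium channels had a median of 0.14 over 58 genes, with 4 passing with total H3K4me3 higher (among them Kcnk1, Kcnh8 and Kcnn2) and Kcnk9 lowest at -1.21. Neurotransmitter receptors had a median of 0.25 over 60 genes, with 4 passing (Grik5, Grin2d, Chrna7 and Gabbr1) and Grm5 lowest at -1.19, and 8 of the 60 lay at balance. Axon guidance ligands and receptors had a higher median of 0.81 over 56 genes, and 8 passed, from Sema6c at 2.00 to Epha2 at 4.66. Robo3 was the lowest of them at -0.97. In these 4 lists 0 genes passed with total H3K27me3 higher as deposited at the region that represents the gene. Outside that rule, a 300 bp region at the promoter window of Epha5 (chr5:84418651-84418950) was called, at -3.60. It held 0 and 1 reads of total H3K4me3 against 11 and 11 of total H3K27me3, and was named after its value was seen. With the block, total H3K4me3 was higher at 10 ligands, 9 potassium channels, 12 neurotransmitter receptors and 23 axon guidance genes, and after centring at 2, 4, 3 and 7. Total H3K27me3 was higher with the block at 4 ligands, 2 potassium channels, 1 neurotransmitter receptor and 0 axon guidance genes, and after centring at 27, 26, 27 and 11. The calls of Fgf4, Kcnn2, Gabbr1 and Epha2, the highest of each list, were lost without total H3K27me3 of clone 57, at 4.29, 2.97, 4.56 and 4.43, and without that of clone 58, at 4.63, 2.55, 4.48 and 4.88.

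Genes that run cell growth lay at the H3K4me3 end in nearly every case with a member region, but few had one. Of 80 cytosolic ribosomal protein genes 7 had a member region, with balances from 3.47 at Rpl7 to 5.41 at Rplp1, and all 7 passed. Of 58 splicing factor genes 13 had one, with a median of 5.17 from Srsf9 at 3.92 to Prpf3 at 5.69, and all 13 passed. Of 54 proteasome and translation initiation genes 6 had one, with a median of 4.69, and all 6 passed. Of 55 genes of DNA replication and the cell cycle 14 had one, and 13 passed, with Orc6 (a subunit of the origin recognition complex) highest at 5.72. Ccnd2, which encodes cyclin D2, did not pass as deposited, with total H3K4me3 at 2.06 and 1.15 and total H3K27me3 at 2.09 and 1.38, a balance of -0.14 ± 0.85, and passed with total H3K27me3 higher after centring. Glycolysis showed a like exception. Tpi1 (4.61), Pfkp, Hk1 and Ldhb passed, while Eno2, the neuronal enolase, had a balance of 0.75 ± 0.83. These calls held with the block and after centring for every gene that passed in these lists. They did not all hold without 1 library. Rpl7, Srsf9, Psma7 and Tpi1 did not pass without total H3K27me3 of clone 57 or without that of clone 58, at balances from 3.25 to 4.90, and Orc6 did not without that of clone 57, at 5.67. Rplp1, Prpf3 and Psmc2 passed without any 1 of the 4 libraries.

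Among genes of the marks themselves, the H3K4 methyltransferase list passed in full. The Polycomb list passed in part, against a share of 43.7% over all protein-coding genes. All 9 of the 25 H3K4 methyltransferase complex genes with a member region passed, from Hcfc2 at 3.09 to Kdm5c at 6.75, with Kmt2a at 4.64 and Men1 at 4.16. Kdm5c, a demethylase of H3K4 listed with that group, held 1 and 2 reads of total H3K27me3. Of 35 Polycomb genes 15 had a member region and 8 passed, among them Aebp2 (a PRC2 cofactor) at 4.63, Kdm2b (which recruits PRC1 variants to CpG islands) at 3.72 and Ring1 at 3.64. Cbx8 (chr11:119033701-119060250), a chromobox protein of canonical PRC1, had a balance of -0.93. At the region of Cbx8, total H3K4me3 was 1.57 and 0.77 and total H3K27me3 2.51 and 1.69 (adjusted p = 0.446, and 0.0586 with the block). With the block 10 Polycomb genes passed with total H3K4me3 higher and 0 with total H3K27me3 higher, and after centring 8 and 2, Cbx8 among the latter at -1.99. Cbx2, another chromobox gene, passed at 2.38. The calls of Hcfc2 and Aebp2 were lost without total H3K27me3 of clone 57 (3.04 and 4.42) and of clone 58 (3.14 and 4.85), and that of Kdm5c was kept without any 1 library.

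Pluripotency genes with a member region were 14 of 32, with a median of 2.24, and 7 passed (Klf4, Tcl1, Nr0b1, Nr5a2, Tfcp2l1, Fgf4 and Trim28). With the block 12 passed with total H3K4me3 higher, and after centring 7, with 1, Esrrb, passing with total H3K27me3 higher. Esrrb (chr12:86420701-86425650), a nuclear receptor of naive pluripotency, was the 1 gene of this list below 0, with 1.62 and 0.98 against 2.02 and 1.52, a balance of -0.47 ± 0.84. Imprinted genes had a median of 0.80 over 28 genes and 8 passed, with Blcap highest at 5.04 and Rasgrf1 lowest at -0.93. With the block 12 imprinted genes passed with total H3K4me3 higher and 0 with total H3K27me3 higher, and after centring 8 and 8, Rasgrf1 among the latter, with a median of -0.26. Markers of differentiated lineages had a median of -0.12 over 16 genes, from -0.98 at Hand1 to 0.76 at Thy1, and none passed as deposited or with the block, while 11 passed with total H3K27me3 higher after centring. Germline genes had a median of 0.31 over 28 genes, with Dmc1, Msh5 and Dnd1 passing as deposited and Slc25a31 lowest at -1.49. With the block 10 germline genes passed with total H3K4me3 higher and 1, Slc25a31, with total H3K27me3 higher (adjusted p = 0.0342), and after centring 3 and 12, with a median of -0.75.
Of the loci the study assayed by qPCR, 8 had a member region at the promoter. Klf4 (chr4:55529251-55534350) passed, with 3.68 and 2.29 of total H3K4me3 and 0.65 and 0.26 of total H3K27me3, a balance of 2.53 ± 0.85 (adjusted p = 0.012). The other 7 did not pass, with 0.83 at Pou4f1, 0.62 at Meis2, 0.07 at Lmo1, -0.06 at Csf1, -0.46 at Sox6, -0.62 at Dlx3 and -1.28 at Tlx1. Tlx1, a homeobox gene, passed with the block (adjusted p = 0.00786), with 1.34 and 0.66 against 2.71 and 1.84. After centring, Csf1, Sox6, Dlx3 and Tlx1 passed with total H3K27me3 higher. The calls of Klf4, Trim28, Blcap and Dnd1 were lost without total H3K27me3 of clone 57, at 2.73, 4.98, 5.08 and 3.27, and without that of clone 58, at 2.34, 5.29, 5.0 and 3.1.

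**Figure D4:**
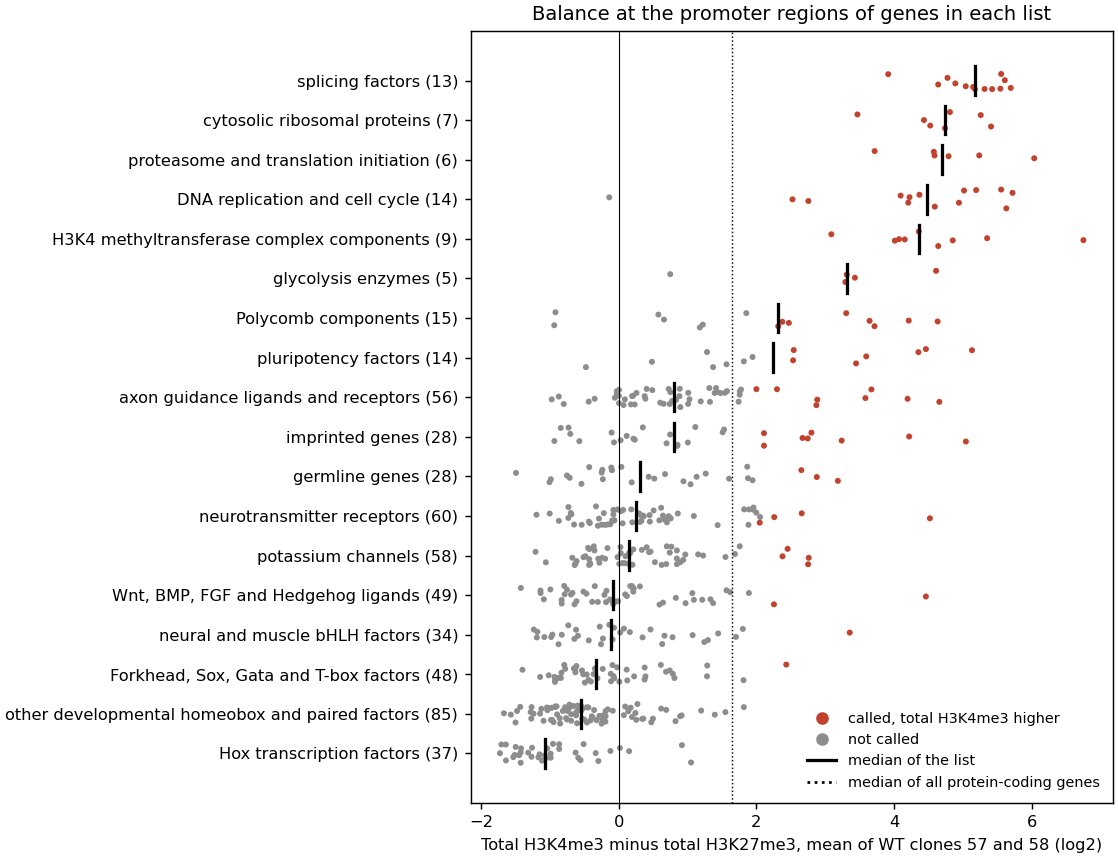
Each point is 1 gene with a member region at its promoter, at the mean balance of WT clones 57 and 58, in the list named at the left with the number of such genes. Black bars are list medians and the dotted line is the median of all 7140 protein-coding genes, 1.64. List medians run from -1.07 for Hox genes to 5.17 for splicing factors. No gene of these lists was called with total H3K27me3 higher at the region that represents it.

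The same regions were then read in libraries that took no part in choosing or classing them. In E14 cells, 11076 of the regions overlapped an E14 region of both orientations, where the balance was taken over the E14 region, which may be wider and may span several member regions. Regions of the H3K4me3 end had a median balance of 1.56 in replicate 1 and 2.13 in replicate 2, and 97.1% and 98.7% lay above 0, against 58.9% and 62.1% of all regions matched. Regions of the H3K27me3 end had medians of -0.52 and -0.63, and 10.2% and 11.9% lay above 0. Regions at balance in the WT clones had medians of -0.26 and -0.31. Across the 11076 regions the balance of the WT clones and of E14 gave Spearman's rho of 0.79 and 0.83, as a description. At the upper end, 5% of all regions lay above 2.54 in replicate 1 and 3.31 in replicate 2, against 5.39 in clone 57 and 3.82 in clone 58.
Values at single genes are given for each class. Spr had balances of 2.63 and 4.83 in E14 replicates 1 and 2, Prdm8 -0.63 and -0.75, Gpr37 -0.25 and -0.09, and Fgf10 0.46 and 0.33.

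In DKO clones 43 and 53, which lack DPPA2 and DPPA4, the median balance over the regions was 0.34 and 0.23. The H3K4me3 end had medians of 3.46 and 2.81, with 98% and 97.9% of regions above 0 against 58.0% and 55.8% of all regions. The H3K27me3 end had medians of -2.35 and -1.84, and the regions at balance -0.54 and -0.45. The difference of the balance between DKO and WT clones was tested by limma with both genotypes in the fit. It had a median of -0.35, and 6 regions (0.0499%) passed with a lower balance in the DKO clones and 0 (0.0%) with a higher one. At an unadjusted p under 0.05, 581 were lower and 67 higher. The regions were listed in the WT clones, and regions marked only in DKO clones could not enter. This choice may favour a lower balance in DKO clones, which was not tested, so the direction of the counts is not read as a result. With the clone as a block 0 regions passed, without trend and robust estimation 71 and 3 passed, and after centring 118 passed with a lower and 69 with a higher balance in DKO clones. Without total H3K4me3 of WT clone 58, 1617 passed with a lower and 55 with a higher balance, without that of WT clone 57, 4 and 25, and without total H3K27me3 of WT clone 57, 15 and 0. Without total H3K27me3 of WT clone 58, 1 and 0 passed, and without any 1 of the 4 DKO libraries, 0.

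Of the 6 regions, 2 lay at promoters of protein-coding genes. At Klhl13 (chrX:23364451-23365500), an adaptor of a ubiquitin ligase, the balance was 4.91 and 5.88 in WT clones and 0.99 and 1.85 in DKO clones. Total H3K4me3 there was 3.22 and 1.85 in WT and 2.01 and 2.19 in DKO clones, and total H3K27me3 was -1.69 and -4.03 in WT and 1.02 and 0.34 in DKO clones. At Naa11 (chr5:97391551-97392600), an N-terminal acetyltransferase gene, the balance was 3.26 and 3.69 in WT clones and -0.57 and 0.04 in DKO clones. Total H3K4me3 was 3.44 and 1.98 in WT and -0.44 and 0.29 in DKO clones, and total H3K27me3 was 0.19 and -1.71 in WT and 0.13 and 0.24 in DKO clones. The groups did not overlap in balance at either gene. Between genotypes, total H3K4me3 overlapped and total H3K27me3 did not at Klhl13, and the reverse held at Naa11.

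**Figure D5:**
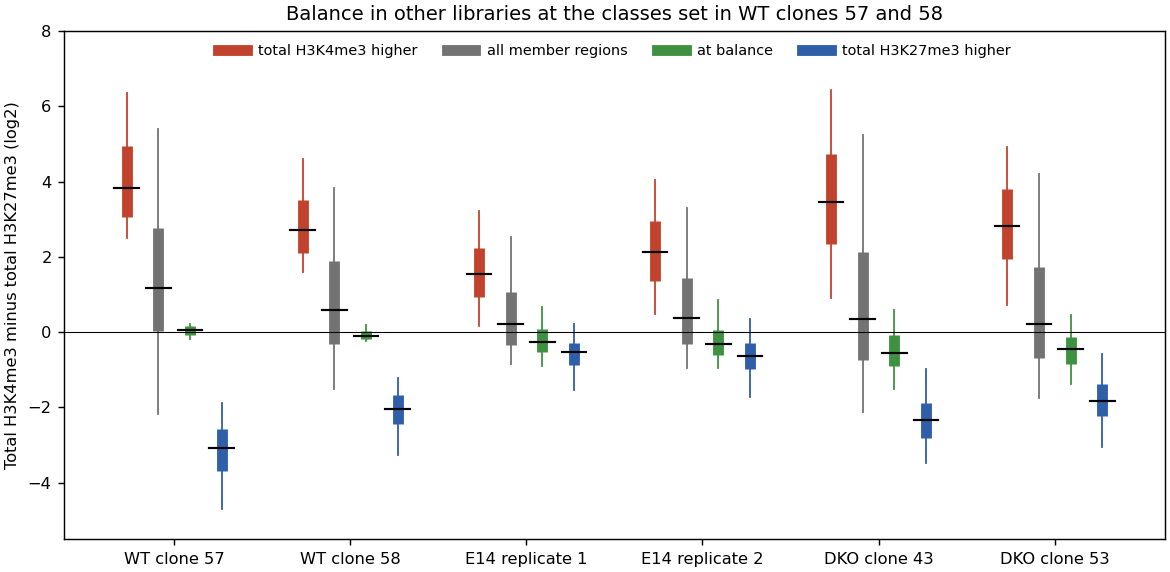
Balance of the marks in each clone or replicate for regions classed in WT clones 57 and 58, with boxes from the 25th to the 75th percentile, lines from the 5th to the 95th and black bars at the median. The classes keep their order in E14 and DKO libraries, with medians of 1.56 to 3.46 for the H3K4me3 end and -2.35 to -0.52 for the H3K27me3 end.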

How the data were processed

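In-line total H3K4me3 and total H3K27me3, both reChIP orientations and IgG–IgG of WT, DKO and E14 cells were used. The authors trimmed reads (Trim Galore 0.6.6), aligned them to mm10 (BWA 0.7.13), processed alignments with SAMtools 1.9 and Picard 2.6.0, and quantified them in SeqMonk at mapping quality over 20 with duplicates kept. The deposited values are log2 RPM per kb of region, without IgG–IgG subtraction, and 0 reads were entered as 0.9. Per the study's methods, the authors called peaks per replicate with EPIC2 against IgG–IgG, filtered them and intersected replicates. The listed widths are multiples of 150 bp, which the stated bin size does not give, so the settings behind these lists are not known. Values were whole multiples of 1 read (tolerance 0.001), which gave the reads quoted. The tables used hold 16 columns of no sample of this series, which were not used.

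Regions were compared with limma 3.58.1 (R 4.3.3; trend and robust estimation) over all 12025 regions, with the log2 values of total H3K4me3 against total H3K27me3, n = 2 clones each. Calls needed a log2 difference above 1 and an adjusted p (Benjamini-Hochberg) below 0.05. The fit was tested on simulated data. Libraries with the same clone number are paired by their cells of origin. Across regions, their deviations from the mark means did not correlate (r = -0.0735). That r leaves out a shift common to all regions of a library, so it cannot show that the pairing is without effect. Such a shift was present, since the median levels of both marks were higher in the same clone. The main fit counts it as spread between clones. The clone entered as a block only in an alternative, which gave more calls of the balance in both directions. A promoter was taken as 1.5 kb to each side of a start site in RefSeq (GRCm38.p6), and CpG content came from that genome.

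Members and gene lists were chosen with earlier results of these data known. Named genes were the 10 largest of each end, and the 10 at balance with the highest lower mark over IgG–IgG, among promoter regions of at least 1 kb of protein-coding genes (1 region a gene, the one with the largest overlap, and symbols that are only model names left out), the qPCR loci, and the highest and lowest gene of each list. The H3K27me3 end had 3 candidates. A few genes that the rule or the lists name are not reported here. Alternatives covered scaling, variance model, thresholds, filters, overlap, the block and each library left out. Python 3.11.15 with pandas 2.3.3 made the tables.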

Additional observations from a re-analysis of the deposited data

Results flagged for a closer look

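At 6 regions the balance differed between DKO and WT clones in the limma interaction test, by -3.98 at the promoter of Klhl13, -3.74 at the promoter of Naa11, -4.12 in an exon at chr13:20185201-20185500, -5.85 at chr13:22583551-22584000, -6.42 in an intron at chr4:96463201-96464250 and -4.93 at chr7:42877951-42878700. At each of them both DKO clones lay below both WT clones. All were listed in the WT clones, and regions marked only in DKO clones could not enter, so their shared direction is not read as a result. At chr4:96463201-96464250 total H3K4me3 held 102 and 30 reads in WT clones and 3 and 2 in DKO clones, and at chr13:22583551-22584000 it held 61 and 24 and then 1 and 1. None passed with the clone as a block. The WT side rests on 1 to 22 reads of total H3K27me3 per library.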

How the results depend on the processing

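The zero point moved with the scaling. Total H3K4me3 was higher at 3479 regions and total H3K27me3 at 428. The clone as a block gave 5298 and 934, paired by the cells of origin, and scaling on the lowest 25% of regions gave 2158 and 5853. Leaving out the lowest 25% of levels gave 2283 and 45. For total H3K27me3 higher, the counts were 3367 centred, 3653 after quantile normalisation, 744 without trend and robust estimation, 927 with the spread of WT and DKO clones together, 119 at 1 kb and wider, 56 with 50% of both widths shared and 229 with a mean of 20 reads, a filter chosen after seeing the data. Leaving out 1 library gave 133 to 5450 and 5 to 755. The median balance of 0.87 reversed to -0.19 centred, -0.22 after quantile normalisation and -0.99 on the lowest 25%, was 1.29 with 50% of both widths shared, and ranged from 0.32 to 1.45 without 1 library. The alternative region set, the enrichment filter and other log2 thresholds kept both counts within 1.5 times.

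For DKO against WT clones, the 6 lower and 0 higher regions became 118 and 69 centred, 71 and 3 without trend and robust estimation, 2 lower without the lowest 25% of levels, and 0 with the replicate block. Leaving out 1 library gave 0 to 1617 lower and 0 to 55 higher. Of the loci named, 59 kept their side of the threshold with the block and 10 passed newly. After centring 25 passed newly and 11 that had not passed as deposited changed sign. Without total H3K27me3 of clone 57 or 58, 20 and 21 no longer passed, and without total H3K4me3 of clone 57 or 58, 2 and 1. Among total H3K27me3 higher regions, the promoter share of 17.3% was 7.94% with a window from 1 kb upstream to 100 bp downstream.

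The median reads of the mark in deficit were 6 and 8 at the H3K27me3 end and 22 and 17 at the H3K4me3 end in clones 57 and 58.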
